A study of Mus musculus with 12 samples.

Results

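The genes of major histocompatibility complex (MHC) class I antigen presentation were followed in sorted cells of mouse leukaemias driven by MLL-AF9, an oncogenic fusion found in acute leukaemias. The members were every probe set that the array annotation gave to a single 1 of 10 symbols: the heavy chain genes H2-K1, H2-D1, H2-Q4, H2-Q10, H2-T23 and H2-M3, the light chain gene B2m, and the peptide loading genes Tap1, Tap2 and Tapbp. This rule found 12 of the 23521 probe sets with exactly 1 symbol, for 9 of the 10 genes. H2-D1 had no probe set of its own, since its 1 set carried another symbol too. H2-Q4, H2-Q10 and Tapbp had 2 probe sets each and the other 6 genes had 1. All 12 sets passed the filter on low values. The list was built around H2-Q10 because 1 of its probe sets, 17337152, had lower values in the leukaemias labelled knock-in. The genotype values of that probe set are therefore given as a description, without a test.

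The 12 arrays came from 6 leukaemias, each sorted by flow cytometry into c-kit-positive and c-kit-negative cells, c-kit being the receptor of stem cell factor and a progenitor marker. Leukaemias 73, 75 and 79 were labelled wild type for Dnmt3b, and leukaemias 81, 83 and 85 were labelled Dnmt3b-knockin, with overexpression of this de novo DNA methyltransferase named in their titles. All 6 carried MLL-AF9, so each of the 4 groups had 3 arrays. The labels name both bone marrow and leukaemic spleen as the tissue, and they give no age, strain, promoter or statement that each number is a separate mouse.

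The labels were checked first. The Dnmt3b probe set differed by only 0.03 (log2, adjusted p = 0.962, limma) between the leukaemias labelled knock-in and those labelled wild type over both fractions, so the genotype is used below as a label. Kit was 1.40 (log2) higher in c-kit-positive than in c-kit-negative cells over both genotypes (adjusted p = 9.92e-06, limma). All 8 myeloid markers measured lay above the 25th percentile of the table on all 12 arrays. Values were log2 RMA values (robust multi-array average), and arrays of the same group correlated at 0.933 to 0.986 over all probe sets.

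A class I molecule is a heavy chain bound to beta-2 microglobulin, the product of B2m, and to a short peptide. The peptide is cut in the cytosol, carried into the endoplasmic reticulum by the transporter made of Tap1 and Tap2, and loaded with the help of tapasin, the product of Tapbp. H2-K1 and H2-D1 are classical heavy chains shown to CD8 T cells on most nucleated cells. H2-Q4, H2-Q10, H2-T23 and H2-M3 belong to the non-classical class Ib genes. H2-Q10 encodes a secreted class I protein known chiefly from liver, H2-T23 encodes Qa-1, a ligand of NK cell receptors, and H2-M3 presents formylated peptides.

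The promoters of the heavy chains were set beside that of H2-Q10. The 3 that carry the contrast between H2-Q10 and 2 other measured heavy chains are printed here. RefSeq held a promoter window of 300 bases (250 before to 50 after the annotated start, build GRCm38.p6) for 9 of the 10 members. The window of H2-Q10 was chr17:35469839-35470138 on the plus strand, that of H2-K1 chr17:34000298-34000597 on the minus strand, and that of H2-Q4 chr17:35379367-35379666 on the plus strand. Capitals mark matches on either strand to 5 motifs that were chosen after the sequences had been seen: GGGNNTTCC (NF-kB-like), GAANNGAAA (interferon response-like), TGACG (the core of a CRE), CCAAT and TATAAA. No match overlapped another.
H2-Q10: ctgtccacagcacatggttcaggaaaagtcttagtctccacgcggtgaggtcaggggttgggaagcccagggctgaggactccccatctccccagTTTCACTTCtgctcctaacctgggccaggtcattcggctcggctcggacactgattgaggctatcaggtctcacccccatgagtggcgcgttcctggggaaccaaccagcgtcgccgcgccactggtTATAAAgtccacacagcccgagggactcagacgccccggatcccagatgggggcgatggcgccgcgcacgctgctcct
H2-K1: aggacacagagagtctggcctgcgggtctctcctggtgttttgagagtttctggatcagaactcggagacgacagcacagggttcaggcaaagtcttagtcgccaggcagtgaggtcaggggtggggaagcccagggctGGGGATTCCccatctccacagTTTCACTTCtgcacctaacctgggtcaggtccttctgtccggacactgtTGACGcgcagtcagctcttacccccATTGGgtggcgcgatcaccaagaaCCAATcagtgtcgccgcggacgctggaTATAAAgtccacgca
H2-Q4: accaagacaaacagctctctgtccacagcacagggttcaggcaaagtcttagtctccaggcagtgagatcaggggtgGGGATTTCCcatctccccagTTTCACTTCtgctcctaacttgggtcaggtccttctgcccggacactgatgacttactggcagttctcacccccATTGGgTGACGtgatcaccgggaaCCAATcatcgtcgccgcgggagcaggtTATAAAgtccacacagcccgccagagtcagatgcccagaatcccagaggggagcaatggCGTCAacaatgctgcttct

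The H2-Q10 window held 1 GAANNGAAA match, at position -155 from the start, and 1 TATAAA match, at -28. It held 0 matches to GGGNNTTCC, TGACG and CCAAT. RefSeq listed 2 windows for H2-K1, which differ in their start, and the first was used. That choice sets the window, the motif positions and the identity given for H2-K1. The H2-K1 window held all 5 motifs, with TATAAA at position 36 after its annotated start, and the H2-Q4 and H2-D1 windows also held all 5. H2-M3 held 3 of the 5 and H2-T23 only CCAAT. Aligned to the H2-Q10 window, identity was 84.5% for H2-D1, 81.2% for H2-K1, 76.6% for H2-Q4, 58.8% for H2-M3 and 52.1% for H2-T23. It was taken only over the stretch where both windows aligned, 245 columns for H2-K1 and 267 for H2-M3. By the same count B2m stood at 58.1% (93 columns), Tap1 at 55.3% (150) and Tapbp at 55.1% (107). H2-M3 and H2-T23 thus stood near the level of members that are not heavy chains. Among all 32851 promoters of the table, 5.82% held GGGNNTTCC, 7.52% GAANNGAAA, 20.8% TGACG, 37.4% CCAAT and 13.6% TATAAA. A match or its absence describes these letters only.

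H2-Q10 was lower in the leukaemias labelled knock-in in both fractions, as read by probe set 17337152. In c-kit-positive cells its log2 values were 9.31, 9.64 and 9.38 for the wild-type leukaemias 73, 75 and 79, and the knock-in leukaemias 81, 83 and 85 gave 7.52, 7.76 and 7.81. In c-kit-negative cells they were 9.18, 9.65 and 9.78 in the wild-type label and 8.29, 8.06 and 7.02 in the knock-in label. All 6 wild-type arrays lay above all 6 knock-in arrays. The c-kit-negative array of leukaemia 85 was the lowest of the 12, and it accounts for the wide spread of its group (SD 0.67, against 0.15 to 0.32 in the other groups).

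The group means of H2-Q10 were 9.53 ± 0.32 in wild-type c-kit-negative cells, 9.44 ± 0.18 in wild-type c-kit-positive cells, 7.79 ± 0.67 in knock-in c-kit-negative cells and 7.70 ± 0.15 in knock-in c-kit-positive cells (SD, n = 3 each). In this order only the step between wild type and knock-in exceeded the spread within groups. The difference between labels was -1.75 in c-kit-positive cells, -1.74 in c-kit-negative cells and -1.74 over the leukaemia means, which is 3.35-fold. For scale, 0.104% of the 20199 probe sets tested passed an adjusted p of 0.05 in c-kit-positive cells and the groups did not overlap in 17.6%. In c-kit-negative cells these shares were 0.0495% and 8.93%, and over the leukaemia means 0.0248% and 13.2%.

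The second H2-Q10 probe set, 17337142, did not show this difference. Its values were 6.12, 6.30 and 5.80 in wild-type c-kit-positive cells, 6.47, 6.22 and 6.44 in wild-type c-kit-negative cells, 6.17, 6.07 and 6.33 in knock-in c-kit-positive cells and 6.38, 6.27 and 6.33 in knock-in c-kit-negative cells. The groups overlapped in both fractions. Over both fractions it differed by 0.03 (95% interval -0.17 to 0.24, adjusted p = 0.957, limma), an interval far from the difference of the other set. Which part of the transcript each set reads was not used here, and levels cannot be compared between sets.

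**Figure D1:**
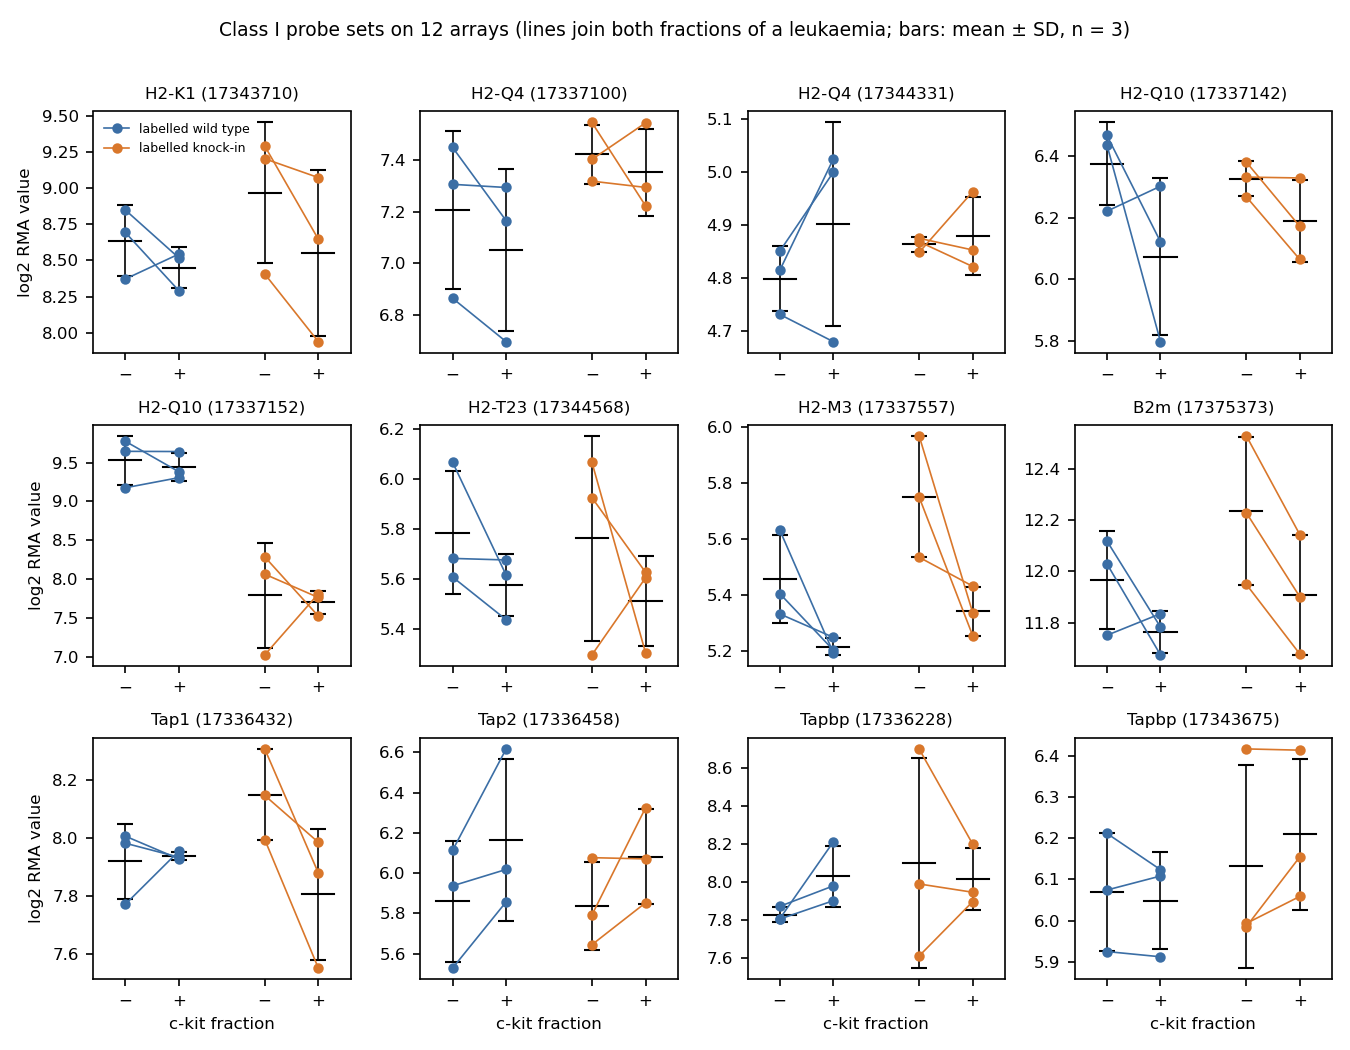
Log2 RMA values (vertical axis, own scale in each panel) of the 12 class I probe sets by c-kit fraction (minus and plus on the horizontal axis), blue for leukaemias labelled wild type and orange for those labelled knock-in, with a line joining both fractions of a leukaemia and black bars for the mean ± SD of 3 arrays. For H2-Q10 set 17337152 the knock-in points lie between 7.02 and 8.29 and the wild-type points between 9.18 and 9.78, while in both fractions the labels overlap for every other panel except H2-M3 in c-kit-positive cells.

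The classical heavy chain H2-K1 was not lower with H2-Q10. Its values in c-kit-positive cells were 8.29, 8.52 and 8.54 in the wild-type label and 8.65, 9.07 and 7.94 in the knock-in label. In c-kit-negative cells they were 8.69, 8.85 and 8.37 against 9.29, 9.20 and 8.41. Leukaemias 81 and 83 were high and leukaemia 85 low within the knock-in label, so the groups overlapped. The difference over both fractions was 0.22 (95% interval -0.30 to 0.73, adjusted p = 0.865, limma).

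H2-Q4, a class Ib gene that lies near H2-Q10, had 2 probe sets. For 17337100 the c-kit-positive values were 7.29, 7.17 and 6.70 in the wild-type label and 7.22, 7.55 and 7.30 in the knock-in label, and the c-kit-negative values 7.31, 7.45 and 6.87 against 7.55, 7.40 and 7.32. Leukaemia 79 was the lowest in both fractions. The difference over both fractions was 0.26 (95% interval -0.08 to 0.59, adjusted p = 0.711, limma). Set 17344331 read between 4.68 and 5.02 on all arrays and differed by 0.02 (interval -0.19 to 0.23).

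H2-T23, which encodes Qa-1, read 5.62, 5.44 and 5.68 in wild-type c-kit-positive cells and 5.31, 5.63 and 5.60 in knock-in c-kit-positive cells. In c-kit-negative cells it read 6.07, 5.61 and 5.68 against 6.07, 5.92 and 5.30. Its groups overlapped in both fractions, and its difference over both fractions was -0.04 (interval -0.32 to 0.23).

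H2-M3 had the only genotype groups that did not overlap among the 11 other sets. In c-kit-positive cells it read 5.25, 5.20 and 5.20 in the wild-type label and 5.34, 5.26 and 5.43 in the knock-in label, and in c-kit-negative cells 5.33, 5.63 and 5.41 against 5.97, 5.75 and 5.54. The difference over both fractions was 0.21 (95% interval 0.01 to 0.41), or 1.16-fold higher in the knock-in label. The 3 knock-in leukaemia means lay above the 3 wild-type means, which gives an exact permutation p of 0.1, the smallest that 3 against 3 allows, and the adjusted p was 0.559 (limma). H2-M3 was thus 1 of 11 sets without overlap in c-kit-positive cells and 1 of 11 over both fractions, and 0 of 11 in c-kit-negative cells, next to the background shares above.

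B2m, the shared light chain, read 11.67, 11.78 and 11.83 in wild-type c-kit-positive cells and 12.14, 11.90 and 11.68 in knock-in c-kit-positive cells. In c-kit-negative cells it read 12.03, 12.12 and 11.75 against 12.53, 12.23 and 11.95. Leukaemia 81 was the highest in each fraction, and the labels overlapped. The difference was 0.21 over both fractions (95% interval -0.10 to 0.51, adjusted p = 0.748, limma).

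Tap1 and Tap2 encode the subunits of the peptide transporter. Tap1 read 7.93, 7.93 and 7.96 in wild-type c-kit-positive cells and 7.88, 7.99 and 7.55 in knock-in c-kit-positive cells, with 7.98, 8.01 and 7.77 against 8.31, 8.15 and 7.99 in c-kit-negative cells. Its genotype difference was -0.13 in c-kit-positive and 0.23 in c-kit-negative cells. The difference between these, -0.36 (95% interval -0.75 to 0.02), had an adjusted p of 1.0 in limma's interaction test. Tap2 read 5.86, 6.02 and 6.62 against 6.07, 6.32 and 5.85 in c-kit-positive cells and 5.53, 5.94 and 6.11 against 6.08, 5.79 and 5.64 in c-kit-negative cells, and differed by -0.05 over both fractions (interval -0.44 to 0.34).

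Tapbp, which encodes tapasin, read between 7.61 and 8.70 by set 17336228 and between 5.91 and 6.42 by set 17343675. Both extremes of the first set were knock-in c-kit-negative arrays, leukaemia 81 at 8.70 and leukaemia 85 at 7.61. The genotype differences over both fractions were 0.13 (interval -0.25 to 0.50) and 0.11 (interval -0.17 to 0.40).

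In c-kit-positive cells, c-kit-negative cells and over both, 0.104%, 0.0495% and 0.0248% of all sets passed the threshold for genotype. Of the 11 sets other than 17337152, 0 passed it in either fraction or over both. The lowest adjusted p was 0.610 in c-kit-positive cells, 0.793 in c-kit-negative cells and 0.559 over both (limma). An unadjusted p under 0.05 was found for 0, 1 and 1 of the 11, beside 2016, 1234 and 1724 of the 20199 sets tested. The median difference of the 11 was 0.10 in c-kit-positive cells, 0.22 in c-kit-negative cells and 0.11 over both. Over all probe sets tested the medians were 0.02, -0.00 and 0.01. Over both fractions 9 of the 11 were above 0, beside 10955 of the 20199 sets tested.

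**Figure D2:**
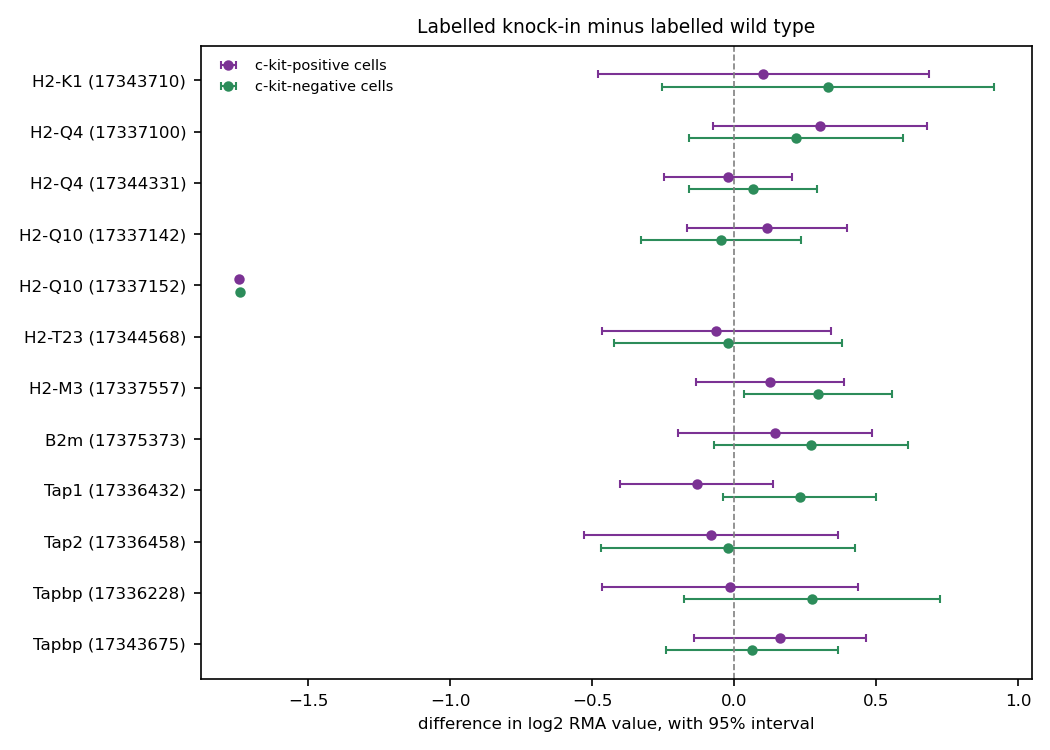
Labelled knock-in minus labelled wild type for each class I probe set (horizontal axis, log2), in c-kit-positive cells (purple) and c-kit-negative cells (green), with 95% intervals from limma except for H2-Q10 set 17337152, which was chosen on this difference. That set lies at -1.75 and -1.74, and the other 11 lie between -0.13 and 0.33.

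The difference of H2-Q10 was not shared by the genes around it. The 10 nearest genes on each side in RefSeq order that had a probe set with 1 symbol gave 25 other tested sets. Genes without such a set were passed over, sets with several symbols were left out, and the H2-Q4 sets among the 25 are also members. Of the 25 sets, 0 passed the threshold for genotype in either fraction or over both (lowest adjusted p 0.410, 0.783 and 0.547, limma). The shares of all sets that passed were 0.104%, 0.0495% and 0.0248%. With shares this low, a count of 0 does not set these 25 sets apart. Over both fractions their differences ran from -0.28 (Ddx39b set 17337046, an RNA helicase) to 0.50 (H2-Q5 set 17337110, a class Ib gene), with a median of 0.08. Pou5f1, the next of these genes on 1 side, differed by 0.06 and H2-Q5 set 17337118, on the other, by 0.15. Of the 25 sets, 4 were higher and 1 lower in the knock-in label without overlap in c-kit-positive cells, beside 17.6% of all sets. In c-kit-negative cells 2 were higher and 0 lower without overlap, beside 8.93%, and over both fractions 5 and 0, beside 13.2%. Among these was Tcf19, higher by 0.41 in c-kit-positive cells (adjusted p = 0.410, limma) and by 0.28 over both fractions (adjusted p = 0.555, limma).

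**Figure D3:**
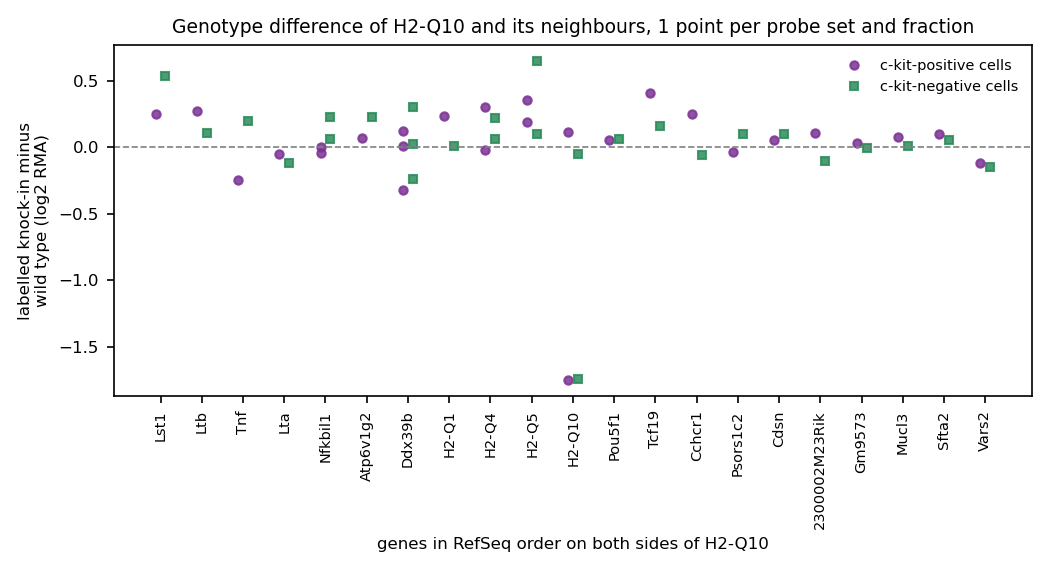
Labelled knock-in minus labelled wild type (vertical axis, log2) for H2-Q10 and 10 genes on each side in RefSeq order (horizontal axis). These are the nearest genes that had a probe set with 1 symbol. Each probe set has 1 point in c-kit-positive (purple circles) and 1 in c-kit-negative cells (green squares). The points of H2-Q10 set 17337152 lie at -1.75 and -1.74, those of its neighbours between -0.32 and 0.64, and the second H2-Q10 set lies at 0.11 and -0.05.

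Since H2-Q10 is known from liver, hepatocyte markers were read on the same arrays. The 7 of 8 measured, among them Alb and Apoa1, had a list mean between 5.49 and 5.90 on each array, and 0 of 7 passed the threshold for genotype, with a median difference of 0.06 over both fractions. In the marker lists of B cells, T and NK cells, dendritic cells, erythroid cells and stroma, 0 genes passed it either. Of all sets, 0.0248% passed it over both fractions. Of the progenitor markers, Flt3 and Cd34 differed by -1.54 and -1.44 (log2, knock-in minus wild type over both fractions), with adjusted p of 0.127 and 0.322 (limma). Kit and Myb in the same list differed by -0.06 and -0.31. Of 8 myeloid markers 0 passed, with a median of 0.13 and differences from -0.50 (Cebpa) to 1.21 (Lyz2, adjusted p = 0.163, limma). The part of these markers in the H2-Q10 difference was not tested. In sorted bulk samples, fewer cells of a type and less RNA per cell cannot be told apart.

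The probe sets whose values ran most like H2-Q10 set 17337152 over the 12 arrays belonged to Atp1b3 (Pearson r = 0.92), a sodium pump subunit, Phf8 (0.91), a histone demethylase, Hpgd (0.90), Zmiz1 (0.90) and Spred2 (0.89). The most opposite were Mecom (-0.94), Phc1 (-0.94), Chil1 (-0.94), Ddx60 (-0.93) and Kdm5b (-0.90). Because H2-Q10 falls into 2 ranges by label, these values mainly rank sets by their genotype difference. With the group means removed r was 0.63 for Atp1b3, 0.82 for Zmiz1, -0.51 for Mecom and -0.37 for Chil1. Mecom averaged 5.68 and 5.63 in wild-type and 6.84 and 6.78 in knock-in c-kit-positive and c-kit-negative cells. H2-K1 ran at -0.11 with H2-Q10, and at 0.46 with the group means removed. With these removed H2-Q10 ran at 0.73 with H2-M3, at 0.64 with Tapbp set 17336228 and at 0.51 with H2-T23. Over the 6 differences between fractions it ran at 0.75 with H2-T23, at 0.73 with H2-M3 and at -0.16 with H2-K1.

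Among the other members, H2-K1 correlated with Tap1 at 0.87 and with B2m at 0.83 over the 12 arrays, and B2m with Tap1 at 0.80. H2-K1 ran at 0.14 with Tap2, at -0.03 with H2-Q10 set 17337142 and at -0.10 with H2-Q4 set 17344331. Over the 6 leukaemia means the H2-K1 values were 0.94 with Tap1 and 0.79 with B2m, and over the 6 differences between fractions 0.84 and 0.83. Outside the list, the sets most like H2-K1 were those of Ap2a2 (0.91), an endocytic adaptor subunit, Nfkb2 (0.90), an NF-kB subunit, Tmem184b (0.90), Sec24b (0.88), a coat protein of secretory vesicles, and Sowahc (0.87). These arrays share leukaemias, so the coefficients are a description.

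Single arrays stood out across the members. The c-kit-negative array of leukaemia 81 was the highest of the 12 for 7 of the 12 sets. The same array had the highest class II values, with H2-Aa at 6.68 against 4.19 to 4.96 on the other c-kit-negative arrays and H2-Ab1 at 8.46, and the highest Ighm, an immunoglobulin heavy chain, at 9.87. The part of other cells in its class I values was not tested. Leukaemia 85 gave the lowest array for 5 of the 12 sets, 3 in its c-kit-negative and 2 in its c-kit-positive fraction.

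The comparison of c-kit fractions did not use the difference that H2-Q10 was chosen on. H2-M3 was lower in c-kit-positive than in c-kit-negative cells in 6 of 6 leukaemias, with log2 differences of -0.08, -0.44 and -0.20 under the wild-type label and of -0.63, -0.50 and -0.10 under the knock-in label, in the order of their numbers. Over both genotypes the difference was -0.33 (SE 0.09), or 1.25-fold lower (adjusted p = 0.0346, limma), and an exact sign-flip permutation over the 6 leukaemias gave p = 0.0312, the smallest it allows. Its fractions did not overlap in either genotype. It was the 1 set of 12 past the threshold, and 7.95% of all sets tested passed it. The call was lost without any of 5 leukaemias, with adjusted p-values of 0.0859, 0.176, 0.0982, 0.0683 and 0.157 when 73, 75, 79, 81 or 83 was left out. Centring each array on its median gave 0.0842, repeating the quantile normalization 0.0860 and testing all probe sets 0.0623.

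Both fractions of a leukaemia come from 1 leukaemia, and with leukaemia as a replicate block 4 of the 12 sets passed the threshold, beside 19.2% of all sets. In that fit H2-M3 (-0.33, adjusted p = 0.0168), H2-K1 (-0.30, adjusted p = 0.0412) and B2m (-0.27, adjusted p = 0.0275) were lower in c-kit-positive cells and Tap2 (0.27, adjusted p = 0.0413) was higher (limma). Without the block the adjusted p was 0.372 for H2-K1, 0.175 for B2m and 0.285 for Tap2. H2-K1 was lower in c-kit-positive cells in 5 of 6 leukaemias, with differences of -0.40, -0.33, 0.17, -0.65, -0.13 and -0.47 in leukaemias 73, 75, 79, 81, 83 and 85. B2m was lower in the same 5, with differences from -0.39 to -0.27, and higher by 0.08 in leukaemia 79. Tap2 was higher in 5 of 6, by up to 0.53, and level in leukaemia 81 (-0.01).

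The remaining members did not pass the threshold in either fit. H2-Q10 set 17337152 differed between fractions by -0.09 over both genotypes (95% interval -0.49 to 0.31, adjusted p = 0.797, limma), with differences from -0.76 in leukaemia 81 to 0.79 in leukaemia 85. Set 17337142 differed by -0.22 (interval -0.42 to -0.02, adjusted p = 0.173), H2-T23 by -0.23 (adjusted p = 0.321) and Tap1 by -0.16 (adjusted p = 0.297). H2-Q4 and Tapbp sets differed by -0.11 to 0.06. Over all 12 sets the median difference was -0.14, beside -0.03 for all sets tested. Of the 12, 8 were below 0 and 4 above, and of the 20199 sets tested 8400 were above 0. H2-M3 was the 1 set with the same sign in all 6 leukaemias, which 21.7% of all sets showed.

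Within each genotype 0 of 12 sets passed the threshold, with or without the block, beside 10.6% of all sets with it in the wild type and 8.3% in the knock-in. In the wild-type label the lowest adjusted p was 0.282 (limma), 0.609% of all sets passed, and the fractions did not overlap for 2 of 12 sets, H2-M3 (lower in c-kit-positive cells) and Tapbp set 17336228 (higher), where 27.4% of all sets did not overlap. In the knock-in label the lowest was 0.126, 1.74% of all sets passed, and H2-M3 and Tap1, both lower in c-kit-positive cells, did not overlap, beside 13.5% of all sets. An unadjusted p under 0.05 (limma) was found for 1 of the 12 sets in the wild-type label and 2 in the knock-in label. Of the 20199 sets tested, 3224 and 2510 had such a p. The interaction of genotype and fraction passed the threshold for 0 of 12 members and for 0% of all sets (454 of 20199 at an unadjusted p under 0.05), with the members' differences running from -0.36 (Tap1) to 0.16 (H2-Q10 set 17337142).

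**Figure D4:**
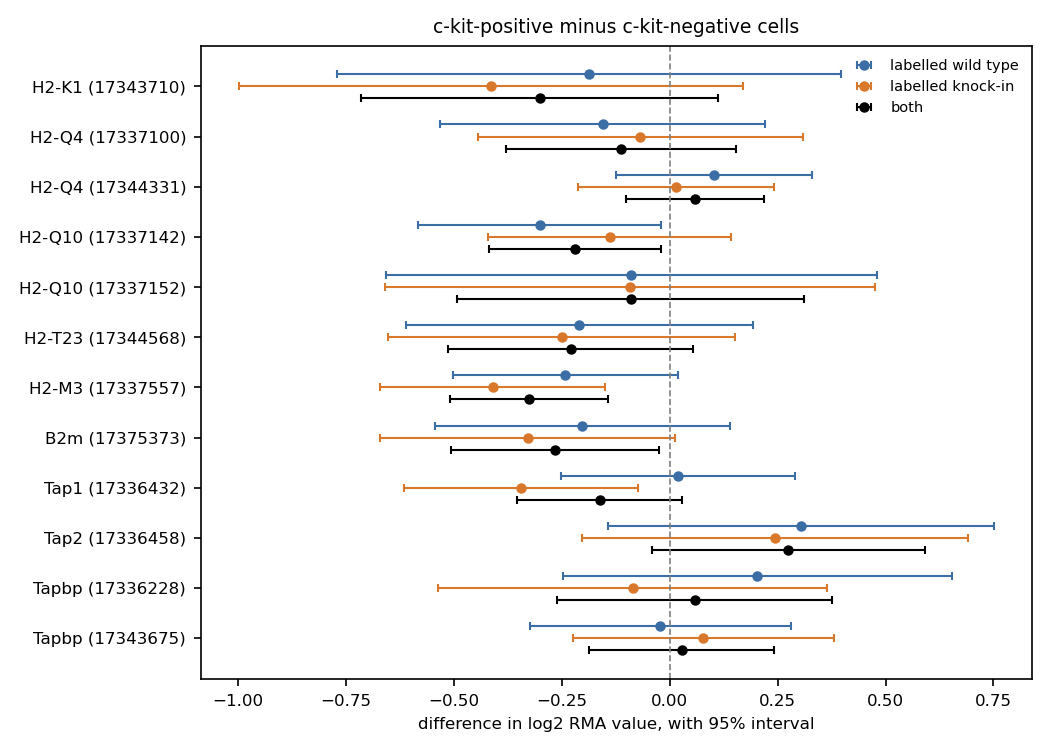
c-kit-positive minus c-kit-negative cells for each class I probe set (horizontal axis, log2) in the leukaemias labelled wild type (blue), in those labelled knock-in (orange) and over both (black), with 95% intervals from limma without the replicate block. H2-M3 lies furthest below 0 over both genotypes, at -0.33, and Tap2 furthest above, at 0.27.

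The wider class I pathway was read from 6 gene lists, each gene by its probe set of highest mean. For genotype, 0 genes passed the threshold in any list in either fraction or over both. Of all sets, 0.104% passed in c-kit-positive cells, 0.0495% in c-kit-negative cells and 0.0248% over both. A count of 0 therefore does not set lists of this size apart. For the counts of signs below, 10955 of the 20199 sets tested were above 0 over both fractions. The 16 tested genes of other class I molecules had a median difference of 0.11 over both fractions with 15 above 0, among them H2-T24 (0.21, adjusted p = 0.713) and Azgp1 (0.21, adjusted p = 0.569). The 19 genes of peptide supply and loading had a median of -0.15 with 14 below 0, among them Psme3, a proteasome activator (-0.35, adjusted p = 0.602), and Canx, the chaperone calnexin (-0.33, adjusted p = 0.627), while the immunoproteasome subunit Psmb9 was at 0.25 (adjusted p = 0.585). All of these are limma values.

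The regulators of class I transcription had a median of -0.05 for genotype over 17 genes. Irf1, an interferon-induced activator, was at 0.43 (adjusted p = 0.559) and its relative Irf2 at 0.27 (adjusted p = 0.714). Suz12 was at -0.33 and Rfxank at 0.15 (adjusted p = 0.711 for each, limma). Interferon signalling genes had a median of 0.13 with 13 of 17 above 0. Irf9, a partner of the STAT factors, was at 0.44 (adjusted p = 0.682), Cxcl9 at 0.25 (0.532) and Irf7 at 0.23 (0.627). Of the 4 below 0, the interferon gamma receptor Ifngr1 was at -0.35 (adjusted p = 0.538). In c-kit-positive cells Ifngr1 was at -0.57, with the lowest adjusted p of the list there (0.217, limma). Among the 10 genes listed as class I receptors, the inhibitory receptor Pirb was at 0.80 over both fractions (1.74-fold, adjusted p = 0.285, limma). The 9 class II genes had a median of -0.02.

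Between fractions, 3 of the 10 genes listed as class I receptors were lower in c-kit-positive cells over both genotypes and 0 were higher. Of all sets, 7.95% passed in either direction. Whether each listed gene, Lilrb4a included, binds class I molecules was not tested. Lilrb4a, an inhibitory receptor of myeloid cells, was 4.89-fold lower (log2 -2.29, SE 0.20, adjusted p = 7.02e-05, limma), Pirb 3.24-fold lower (adjusted p = 0.000311) and Klra2, a lectin-like receptor, 1.85-fold lower (adjusted p = 0.001). All 10 genes of the list were below 0, with a median of -0.20. For this and the later counts of signs between fractions, 8400 of the 20199 sets tested were above 0. These 3 calls held in all 14 alternatives. Within the labels 2 passed in the wild type (Lilrb4a and Pirb), beside 0.609% of all sets, and the same 3 in the knock-in, beside 1.74%. In the wild-type label Lilrb4a had an adjusted p of 0.118 without leukaemia 73 and 0.0843 without 75, and Pirb 0.185 without 73, 0.0689 without 75, 0.0631 without 79 and 0.0541 over all probe sets. In the knock-in label Klra2 had 0.104 without leukaemia 83. With leukaemia as a replicate block all 3 were lower in each label, beside 10.6% of all sets in the wild type and 8.3% in the knock-in. In that fit Klra2 was 1.57-fold lower in the wild type (adjusted p = 0.0193, limma). Over both genotypes the block added Klrd1, another lectin-like receptor (1.26-fold lower, adjusted p = 0.0283, limma), beside 19.2% of all sets. Its means lay near the filter value of 4.61, at 4.32 (wild type) and 4.55 (knock-in) in c-kit-positive cells. In c-kit-negative cells they were 4.68 and 4.87. Klra2 was near that value in c-kit-positive cells only, at 4.78 and 4.61 against 5.43 and 5.73. Near the filter value an array shows little of a change.

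Myeloid markers differed between the same fractions, and their part in the receptor differences was not tested. Of 8 markers 6 passed the threshold over both genotypes, beside 7.95% of all sets. Lyz2 (lysozyme, -1.75, adjusted p = 7.4e-05), Csf1r (a growth factor receptor of monocytes and macrophages, -1.46, adjusted p = 0.0021), Ptprc (-0.75, adjusted p = 0.0103) and Itgam (-0.62, adjusted p = 0.0425) were lower in c-kit-positive cells (log2, limma). Mpo (2.85, adjusted p = 0.0031) and Elane (1.61, adjusted p = 0.0156), granule proteins of early granulocytic cells, were higher, and Spi1 (-0.20) and Cebpa (-0.0015) did not pass.

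Genes of peptide supply and loading were mostly above 0 in the same comparison. Without the block 0 of 19 passed the threshold (lowest adjusted p 0.0575, Canx, limma), 17 of 19 differences were above 0 and the median was 0.28. With leukaemia as a replicate block 11 of 19 were higher and 0 lower, beside the 19.2% background. They included Calr (calreticulin, 1.55-fold, adjusted p = 0.00232), Canx (1.40-fold, adjusted p = 0.00494), Pdia3 (the disulfide isomerase ERp57 of the loading complex, 1.39-fold, adjusted p = 0.00145) and Erap1 (a peptide-trimming aminopeptidase, 1.38-fold, adjusted p = 0.00232). Npepps, another aminopeptidase, was 1.30-fold higher (adjusted p = 0.00392) and Psmb7, a proteasome subunit, 1.23-fold (adjusted p = 0.0139). Within the labels the block gave 5 of 19 higher in the wild type (Calr, Canx, Erap1, Pdia3 and Psme1), beside 10.6% of all sets, and 3 in the knock-in (Erap1, Npepps and Pdia3), beside 8.3%, with 0 lower in each.

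Among regulators of class I transcription, 2 of 17 were higher in c-kit-positive cells and 0 lower over both genotypes, beside 7.95% of all sets. Both, Suz12 (1.80-fold, adjusted p = 0.0065) and Ezh2 (1.63-fold, adjusted p = 0.0331), are subunits of Polycomb repressive complex PRC2 (limma). Suz12 kept its call in all 14 alternatives and Ezh2 in 9, losing it without leukaemia 73 (0.123), 75 (0.156), 79 (0.0661) or 83 (0.150) and over all probe sets (0.0669). Suz12 also passed within the knock-in label (2.04-fold, adjusted p = 0.0340), a call lost without leukaemia 73, 75, 83 or 85 (0.0763, 0.0865, 0.300 and 0.0891), with the knock-in arrays fitted alone (0.145), with arrays centred (0.0700) and over all probe sets (0.0838). With the block 4 of 17 were higher and 2 lower, beside 19.2% of all sets, the latter Irf8, a myeloid interferon regulatory factor (1.94-fold, adjusted p = 0.00846), and Nlrc5 (1.16-fold, adjusted p = 0.0485). Within the wild-type label the block had Suz12 (adjusted p = 0.00704) and Ezh2 (0.00758) higher and Irf8 lower (0.0413), 3 of 17 beside 10.6% of all sets. Within the knock-in label it had Suz12 (0.000508) and Ezh2 (0.00131) higher, 2 of 17 beside 8.3%.

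Of 17 interferon signalling genes, 1 was lower in c-kit-positive cells, beside 7.95% of all sets. This was Irf7 (1.43-fold, adjusted p = 0.0176, limma), a call that was lost without leukaemia 73 (0.0858), 75 (0.115), 79 (0.051) or 83 (0.0982). With the block 4 of 17 were lower and 1, the interferon gamma receptor Ifngr1, was higher (1.31-fold, adjusted p = 0.00259), beside 19.2% of all sets. Within the wild-type label the block had only Ifngr1 past the threshold, as higher (adjusted p = 0.00439), and within the knock-in label Ifngr2 (0.014) and Irf7 (0.0124), both lower, beside 10.6% and 8.3% of all sets. Of 16 other class I genes, 1 was lower, Fcgrt, the neonatal Fc receptor (1.21-fold, adjusted p = 0.0451), beside 7.95% of all sets, and this call was lost without any of leukaemias 73, 75, 79, 81 and 83 (0.103, 0.178, 0.167, 0.0991 and 0.119), with arrays centred (0.0983) and over all probe sets (0.0747). With the block 3 of 16 were lower, beside 19.2% of all sets, and within the labels 0 in the wild type and Fcgrt in the knock-in (adjusted p = 0.043). Of 9 class II genes 0 passed and all 9 were below 0, with a median of -0.27, and with the block H2-Eb1 was lower (1.25-fold, adjusted p = 0.0143), while 0 passed within either label.

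**Figure D5:**
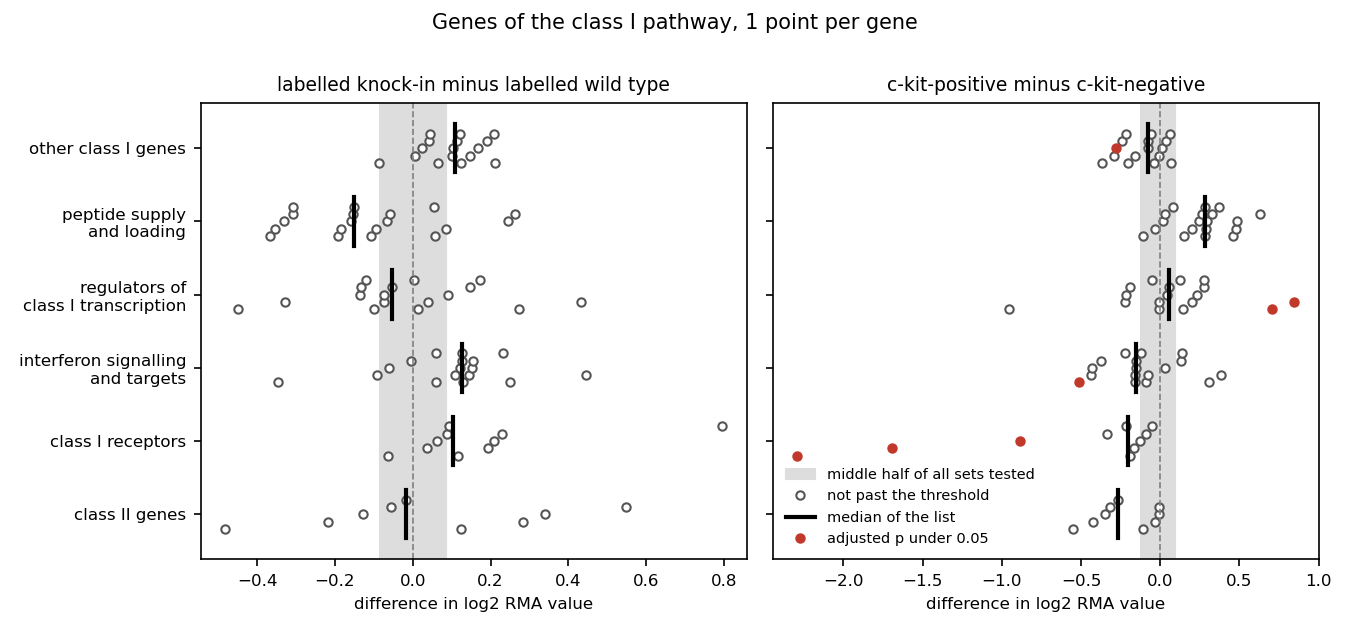
Differences in log2 RMA value of single genes (points) in 6 lists of the class I pathway, between labels over both fractions (left) and between c-kit fractions over both genotypes (right), with the list median as a black line, the middle range between quartiles of all sets tested in grey, and filled red points for an adjusted p under 0.05 without the replicate block. The left panel has 0 red points and the right panel 7, of which Lilrb4a lies furthest from 0 at -2.29.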

How the data were processed

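Expression was measured on 12 Affymetrix whole-transcript arrays of sorted leukaemic cells, 4 groups of 3. Per the submitters' processing notes, the authors ran RMA in the Expression Console of Affymetrix (versions not given in the sources used here), and the deposited table holds log2 values of 41345 probe sets, used without further normalization. Arrays have no depth, so their number limits the precision.

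The genes, lists and comparisons were chosen with earlier results of these data known. The annotation gave exactly 1 symbol to 23521 probe sets, several to 1814 and listed none for 16010. Of the sets with 1 symbol, 23328 matched a RefSeq gene by Entrez identifier. Of the 23521 sets with 1 symbol, matched or not, 20199 exceeded 4.61 (the table's 25th percentile) on 3 or more arrays and were tested. One limma model (3.58.1, R 4.3.3, statmod 1.5.0) with 4 group means gave the contrasts, checked on simulated data. Genotype over both fractions used the means of 6 leukaemias. Tests were two-sided, adjusted by Benjamini-Hochberg over all sets tested, with a threshold of 0.05. The labels do not say that leukaemias are separate mice, so p-values measure the spread between these samples, which may be technical. Single values were also tested by exact permutation over leukaemias.

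The 2 fractions of each leukaemia share a number. After removal of group means their arrays correlated at 0.274 to 0.606, so the numbers pair the samples. The blocked fit is given beside the counts of calls between fractions.

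All 12 member sets are reported. From each list, up to 4 genes with the smallest p in a comparison are named, plus those past the threshold where these are 6 or fewer. Figures and promoter searches used Python (pandas, matplotlib, Biopython). Alternatives were another scaling, filter, set of probe sets, variance model, block or group of arrays, and each leukaemia left out.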

Additional observations from a re-analysis of the deposited data

Results flagged for a closer look

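Probe sets with several symbols were left out of the comparisons above, and no gene is named from them. The annotation gave 6 sets only symbols of class I heavy chains, and for 2 of them every knock-in array lay above every wild-type array of the same fraction, in both fractions. Higher without overlap were 5 of the 6 in c-kit-positive cells, 3 in c-kit-negative cells and 4 over both. Of all tested sets with 1 symbol, 17.6%, 8.93% and 13.2% did not overlap, in either direction. The share without overlap in both fractions at once was not computed. Set 17337120, with 3 symbols, was higher by 0.4101 (log2 over both fractions, 1.33-fold, 95% interval 0.13 to 0.69, adjusted p = 0.553 with limma among all probe sets). Set 17337122, with 2 symbols, was higher by 0.5829 (interval 0.09 to 1.08, adjusted p = 0.618). In c-kit-positive cells the values of 17337120 were 9.41, 9.28 and 9.13 in the wild-type label against 9.51, 9.86 and 9.50 in the knock-in label. Neither passed the threshold, and the direction is opposite to that of H2-Q10 set 17337152.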

How the results depend on the processing

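For genotype, 0 of 11 member sets passed the threshold in the main fit and in all alternatives. The H2-Q10 set 17337152 stayed lower in the knock-in label in all alternatives, between -1.81 and -1.65 in c-kit-positive cells, between -1.99 and -1.36 in c-kit-negative cells and between -1.87 and -1.58 over both. It was chosen on this difference, and all its wild-type arrays lay above all its knock-in arrays. The kept sign is therefore a description and no support. Between fractions over both genotypes, the 1 member set called became 0 with each array centred on its median, with repeated quantile normalization and with all probe sets tested, 4 with leukaemia as a replicate block, and 0 to 1 without each leukaemia in turn. The block changed no other count of member sets called. Of 1196 member differences recomputed, 0 reversed among calls, and 60 of 1135 that passed in neither fit changed sign. Over all sets the calls ranged from 0 to 107 (21 in the main fit) for genotype in c-kit-positive cells, 1 to 56 (10) in c-kit-negative cells, 1 to 70 (5) over both, 1 to 2135 (123) between fractions in the wild type, 51 to 1676 (351) in the knock-in and 452 to 3873 (1605) over both. Set 17344331 of H2-Q4, read at 4.68 to 5.02, lay near the filter value of 4.61, where an array shows little of a change.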
